A study of Mus musculus with 6 samples.

Results

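The genes of the proteasome, the protease that degrades ubiquitin-tagged proteins, were compared in the brain of 3 adult male Kdm5c deficient mice and 3 wild type male littermates, by RNA sequencing. Members were all rows of the expression table whose symbol is Psm followed by one of the letters a to g, a number and at most 1 further letter, which gave 49 genes of 43346 rows. Every mouse was of mixed C57BL/6 and 129 background, from a heterozygous Kdm5c deficient mother on C57BL/6 and a wild type father of strain 129. Kdm5c is an X-linked gene whose product removes methyl groups from histone H3 lysine 4. The labels do not describe the Kdm5c allele or the brain region, and they do not say whether an RNA came from 1 animal or a pool.

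The proteasome has a barrel-shaped core of stacked alpha and beta rings, in which 3 beta subunits cut peptide bonds. A regulatory cap on the core recognises ubiquitin chains, removes them and threads the substrate inward with a ring of ATPases. Other caps can take its place, interferon can exchange the 3 cutting subunits for inducible counterparts, and dedicated chaperones build the complex. Neurons depend on it for protein turnover at synapses, and its subunits are needed in fixed ratios.

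Libraries held 21090278, 24178704 and 21945675 counts in deficient mice, against 24555412, 20221675 and 22956590 in wild-type mice. Kdm5c itself averaged 72.7 ± 6.74 CPM (CPM, counts relative to the scaled library total) in deficient mice against 81.4 ± 3.43 CPM in wild-type mice (SD, n = 3 each). Its edgeR adjusted p was 0.196, and without a described allele this does not check the labels. The 11 neuron markers summed to between 8888 and 10043 CPM in deficient and between 8762 and 9226 CPM in wild-type mice, and 0 of them were at 0 in every mouse. Deficient mouse 2 stood apart in 18 cerebellar markers, which summed to 1280 CPM there, 3339 and 2739 CPM in the other deficient mice and 3691 to 4217 CPM in wild-type mice. In whole tissue, fewer cells of a type and less RNA per cell cannot be told apart.

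No proteasome gene passed the test between genotypes. Of the 49 members 47 had enough reads, and the quasi-likelihood test of edgeR, adjusted by Benjamini-Hochberg over 15127 genes to a threshold of 0.05, called 0 of them higher and 0 lower. Of all tested genes it called 4.93%, with 2.45% higher and 2.48% lower in deficient mice. At an unadjusted p under 0.05 there were 4 members, Psme4, Psme1, Psma8 and Psmd5, which is 8.51% of those tested beside 24.9% of all tested genes. At an adjusted p under 0.1 edgeR placed 2 members higher and 1 lower, beside 5.67% and 6.18% of all tested genes. limma-voom called 0 members and DESeq2 called 1, Psme4, as lower, beside 4.30% of all genes. The CPM values of the genotypes did not overlap in 7 of the 47, with 6 higher and 1 lower in deficient mice. Over all tested genes 30.8% had no overlap, 14.9% higher and 16.0% lower. The median log2 fold change (deficient over wild type) of the 47 members was 0.04, and that of all tested genes was 0.00. Without deficient mouse 2 the median of the members was -0.00013, so the direction of this small shift rested on that mouse. In 23 of the 47 members the sign of the log2 fold change turned in at least 1 of the fits that left out 1 mouse.

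**Figure D1:**
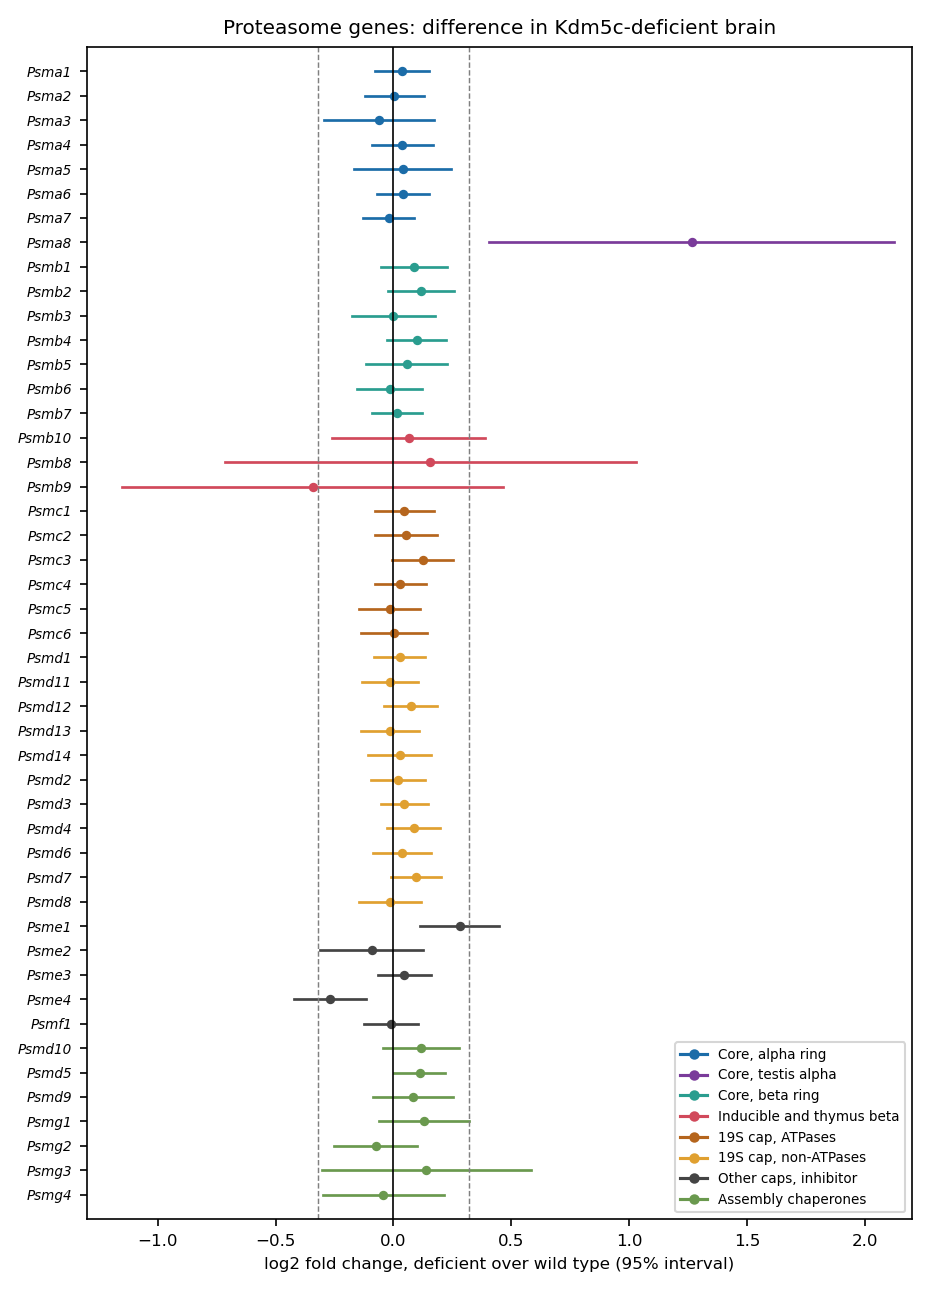
Log2 fold change of each of the 47 tested proteasome genes, deficient over wild type, with its 95% interval from edgeR's quasi-likelihood fit (3 mice per genotype), coloured by role. The dashed lines mark a 1.25-fold difference in either direction. Among these genes all 31 subunits of the core and the ATPase-bearing cap lie between them. Psma8, Psme1 and Psme4 have intervals that leave out 0 and reach past a line.

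The 14 subunits of the constitutive core were at nearly the same level in both genotypes. Of the 7 alpha and 7 beta subunits 0 passed, and their log2 fold changes ran between -0.06 for Psma3 and 0.12 for Psmb2. Together they summed to 983, 1020 and 926 CPM in deficient mice and 975, 944 and 930 CPM in wild-type mice. The genotypes overlapped: deficient mouse 2 was the highest and deficient mouse 3 the lowest of the 6.

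The 3 cutting subunits of the core are Psmb5, with chymotrypsin-like activity, Psmb6, with caspase-like activity, and Psmb7, with trypsin-like activity. Psmb5 had 75.3, 81.5 and 67.9 CPM in deficient mice and 74.6, 66.4 and 75.1 CPM in wild-type mice. Psmb6 had 77.3, 77.8 and 68.7 CPM in deficient mice and 78.1, 76.2 and 72.1 CPM in wild-type mice. In both genes the genotypes overlapped, with deficient mouse 3 the lowest of the deficient mice. Psmb7 had 119, 118 and 114 CPM in deficient mice and 121, 113 and 114 CPM in wild-type mice, so it too overlapped. The 95% intervals of the fold (deficient over wild type) were 0.922 to 1.17 for Psmb5, 0.898 to 1.09 for Psmb6 and 0.938 to 1.09 for Psmb7 (edgeR's quasi-likelihood fit). Exons of Psmb7 overlap those of Nek6 on the other strand by 405 bases, so some of its reads may belong to that gene.

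Among the other core subunits, the beta subunit gene Psmb2 was nearest to the threshold. It had 53.1, 59.1 and 51.9 CPM in deficient mice and 50.6, 52.2 and 48.7 CPM in wild-type mice, with deficient mouse 3 inside the wild-type range, and a log2 fold change of 0.12 ± 0.06 (SE, edgeR adjusted p 0.278). This value was 0.06 without deficient mouse 2 and also with GC and length offsets. Psma6, the alpha subunit with the smallest p, had 0.04 ± 0.05 (SE, edgeR adjusted p 0.651), at 90.5, 93.5 and 85.7 CPM in deficient and 89.0, 88.1 and 85.3 CPM in wild-type mice. Psma3 had 10.5, 13.002 and 10.6 CPM in deficient mice and 11.7, 11.98 and 11.9 CPM in wild-type mice, with deficient mouse 2 above and the other deficient mice below the wild-type values. It had the widest interval of the core, 0.816 to 1.13 in fold.

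The 17 members that belong to the ubiquitin-recognising cap were as close between genotypes. They comprise the 6 ATPases Psmc1 to Psmc6, which unfold the substrate, and 11 other subunits, among them the scaffolds Psmd1 and Psmd2, the ubiquitin receptor Psmd4 and the deubiquitinase Psmd14. Of the 17 cap genes 0 passed, the log2 fold changes ran between -0.02 for Psmc5 and 0.13 for Psmc3, and the sums were 1897, 1930 and 1785 CPM in deficient and 1869, 1793 and 1807 CPM in wild-type mice. As in the core, deficient mouse 2 was the highest and deficient mouse 3 the lowest. Psmc3 had 152, 157 and 143 CPM in deficient and 146, 132 and 136 CPM in wild-type mice, at 0.13 ± 0.06 on the log2 scale (SE, edgeR adjusted p 0.214), and its exons overlap those of Slc39a13 on the other strand by 215 bases. Psmd4 stood at 99.9 ± 3.62 CPM in deficient and 94.1 ± 3.26 CPM in wild-type mice (SD, n = 3 each), and Psmd14 at 74.2 ± 5.16 CPM in deficient and 72.9 ± 2.25 CPM in wild-type mice. Psmd7, the partner of Psmd14 in the cap, was the single one of these 17 genes without overlap, beside 30.8% of all tested genes. It had 100.5, 96.6 and 95.8 CPM in deficient and 94.9, 90.2 and 89.2 CPM in wild-type mice, which is 0.09 ± 0.05 on the log2 scale (SE, edgeR adjusted p 0.247).

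The precision of these values can be given as a bound. For all 31 core and cap subunits among the members the 95% interval of the fold lay between 0.816 and 1.20. This is inside a 1.25-fold difference in either direction. Cap subunits with other symbols are not among the 31. Of these, Adrm1 had an interval of -0.47 to -0.05 on the log2 scale, past that bound, and Shfm1 of -0.06 to 0.22, inside it. Of all 47 tested members 40 had an interval inside the bound (85.1%), beside 47.4% of all tested genes. At a mean level of 20 CPM or more it was 32 of 34 members (94.1%) and 74.7% of all such genes. The median absolute log2 fold change was 0.05 over the 47 members and 0.12 over all tested genes. Among those at 20 CPM or more it was 0.04 over the 34 members and 0.09 over all such genes. Within a genotype the 31 subunits had a median coefficient of variation of 4.94% in deficient and 3.46% in wild-type mice, and genes of at least 20 CPM had 5.44% and 3.69%.

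**Figure D2:**
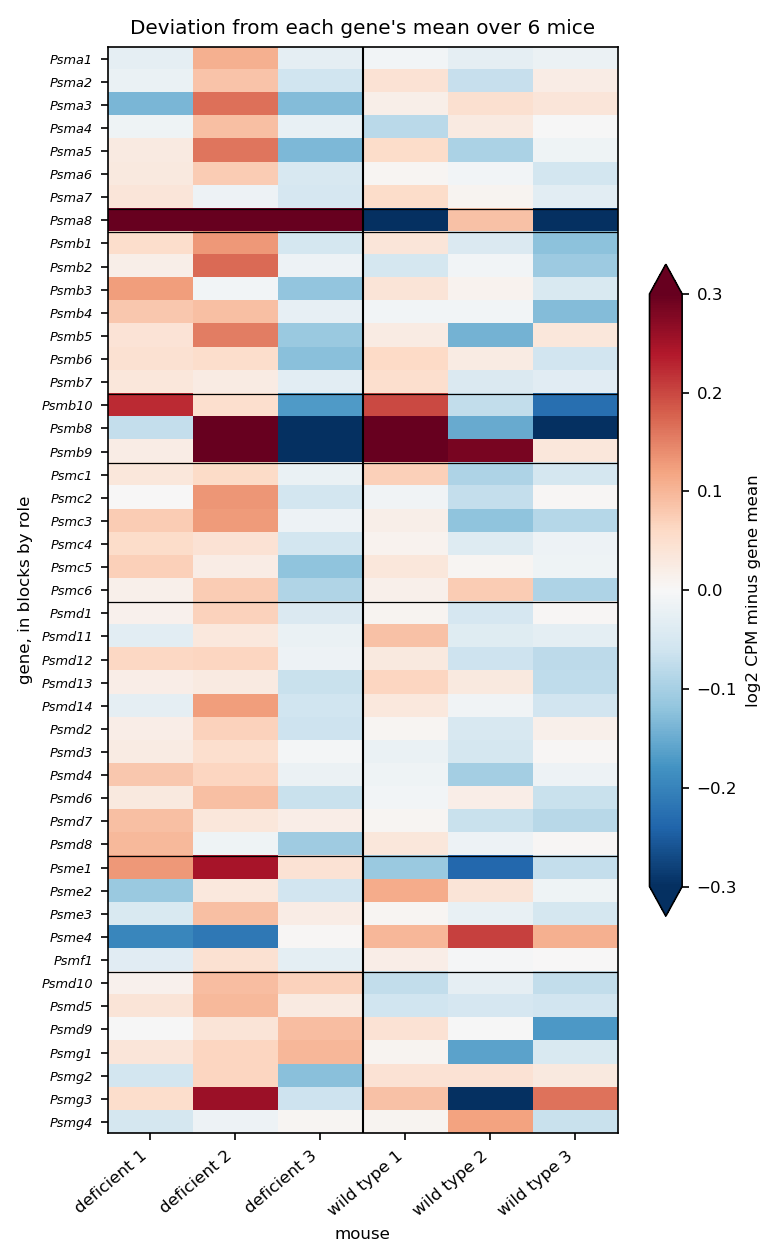
Log2 CPM of each tested proteasome gene in each mouse minus the gene's mean over the 6 mice, in blocks by role, with the deficient mice to the left of the line and the wild-type mice to the right. The colours stop at 0.3 in either direction. Most core and cap genes are above their mean in deficient mouse 2 and below it in deficient mouse 3, while Psme1 is above its mean in all deficient mice and Psme4 is near or below it in them.

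The median core and cap gene also shifted between mice of one genotype. The median deviation of the 31 core and cap genes from their mean was 0.03, 0.07 and -0.05 on the log2 scale in deficient mice 1, 2 and 3 and 0.02, -0.04 and -0.03 in wild-type mice. No such median is given for other genes, so the shift is not shown to be particular to these. Deficient mouse 2, the highest, is also the mouse with the low cerebellar markers. Their part in the shift was not tested.

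The caps that bind the core in place of the ubiquitin-recognising one held the members with the smallest p-values. Psme4 encodes PA200, a nuclear activator known for the breakdown of acetylated histones. It had 59.6, 58.8 and 68.4 CPM in deficient mice and 73.1, 78.7 and 73.5 CPM in wild-type mice. All 3 deficient mice were below all 3 wild-type mice, and deficient mouse 3 was nearest to them. The means were 62.3 ± 5.35 CPM in deficient and 75.1 ± 3.12 CPM in wild-type mice (SD, n = 3 each), a log2 fold change of -0.27 ± 0.07 (SE) with an edgeR adjusted p of 0.0553, just short of the threshold. The 95% interval of the fold was 0.746 to 0.922. Permuting the CPM values over the mice (exact, two-sided) gave p = 0.1, the smallest that 3 against 3 mice allow. Over 15 alternative analyses the log2 fold change stayed between -0.34 and -0.23 with adjusted p between 0.0178 and 0.213, and 3 of them passed: DESeq2 (0.0178), no filter on low counts (0.0355, where 2.67% of all genes were lower) and the fit without deficient mouse 3 (0.0450, where 0.422% were lower). The authors' deposited table gave Psme4 a log2 fold change of -0.25 once turned to deficient over wild type, and p = 0.00107 before adjustment.

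Psme1 and Psme2 encode the alpha and beta subunits of PA28, an interferon-inducible activator that speeds the release of peptides from the core, and they are assembled into 1 ring. Psme1 had 30.4, 32.97 and 28.6 CPM in deficient mice and 25.7, 23.6 and 26.4 CPM in wild-type mice, with all deficient mice above all wild-type mice. This was a log2 fold change of 0.28 ± 0.07 (SE, edgeR adjusted p 0.0637), with a 95% interval of the fold of 1.08 to 1.36, and over the 15 alternatives it stayed between 0.22 and 0.33 with adjusted p between 0.0504 and 0.23. Its exons overlap those of Emc9 on the other strand by 14 bases. Psme2 had 7.09, 7.84 and 7.36 CPM in deficient mice and 8.29, 7.87 and 7.61 CPM in wild-type mice. The genotypes overlapped in Psme2, at -0.09 ± 0.10 on the log2 scale (SE, edgeR adjusted p 0.593), so the values of the 2 partner genes lay on opposite sides of 0. Psme2 has a near-identical intronless relative, Psme2b, which matches it over 794 bases at 99.37% identity and had 0 reads in every mouse, a level of at most 0.121 to 0.147 CPM by a floor of 3 counts per library (counting error only). Reads that fit both cannot be assigned with certainty, and the values of both genes are uncertain to that extent.

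Psme3, the nuclear PA28 gamma, and Psmf1, the core inhibitor PI31, completed this group. Psme3 had a log2 fold change of 0.05 ± 0.05 and Psmf1 of -0.01 ± 0.05 (SE). Markers of other cells are given beside Psme4 and Psme1, where 2.45% of all tested genes were called higher and 2.48% lower. The 18 microglial markers summed to between 429 and 482 CPM in deficient and between 385 and 403 CPM in wild-type mice, and of the 17 tested 3 were called higher and 0 lower. The 10 oligodendrocyte markers summed to between 5782 and 7299 CPM in deficient and between 7401 and 8370 CPM in wild-type mice, with 2 called lower and 0 higher. The 8 astrocyte markers summed to between 5203 and 5568 CPM in deficient and between 4768 and 5049 CPM in wild-type mice, with 1 called higher and 0 lower. Only 4 of these 8 had a log2 fold change above 0, at a median of 0.02. Slc1a2 alone had 2905 CPM in deficient and 2476 CPM in wild-type mice. The 10 endothelial markers summed to between 315 and 357 CPM in deficient and between 310 and 316 CPM in wild-type mice, with 0 called. Of 9 tested markers of blood cells 0 were called higher and 1 lower. A single call in so short a list says little. None of the markers in these lists was at 0 in every mouse, and their part in the values of Psme4 and Psme1 was not tested.

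**Figure D3:**
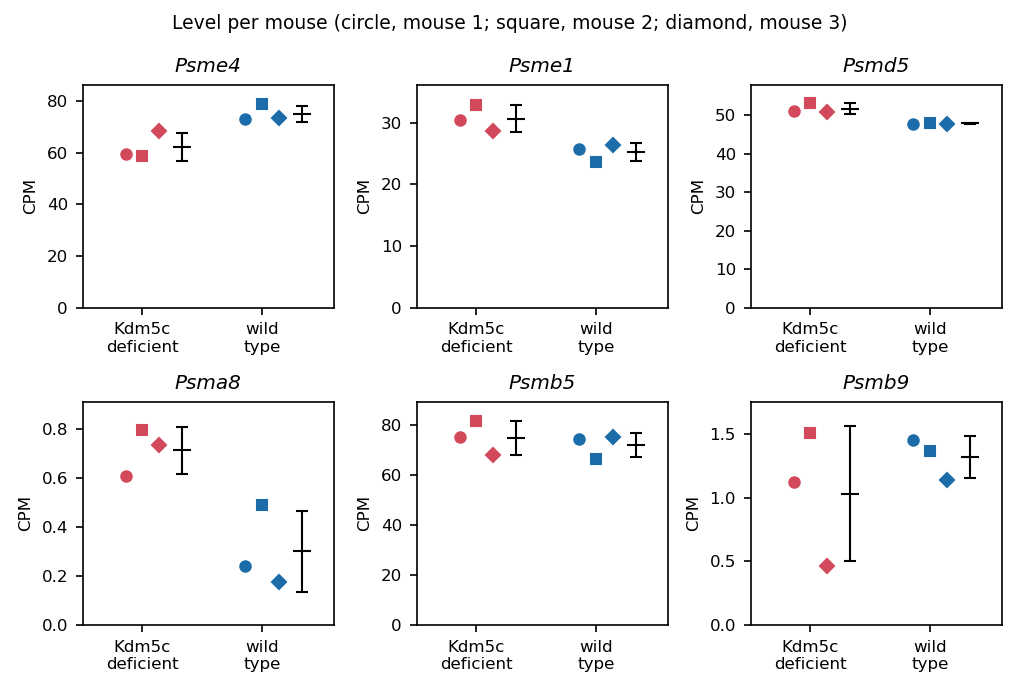
CPM in each mouse for 6 proteasome genes, deficient mice on the left in red and wild-type mice on the right in blue, with the mean and SD (n = 3) as a black bar beside each group; the axes start at 0. Psme4 is lower in every deficient mouse, Psme1, Psmd5 and Psma8 are higher in every deficient mouse, and Psmb5 and Psmb9 overlap.

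The start regions of these 2 genes are shown because they are the members nearest to the threshold with a promoter sequence in RefSeq. Each runs from 250 bases before to 20 bases after the annotated start, 5′ to 3′ on the strand of the gene (GRCm38.p6), and capitals mark a match to a motif.
Psme4, chr11:30771525-30771794, plus strand: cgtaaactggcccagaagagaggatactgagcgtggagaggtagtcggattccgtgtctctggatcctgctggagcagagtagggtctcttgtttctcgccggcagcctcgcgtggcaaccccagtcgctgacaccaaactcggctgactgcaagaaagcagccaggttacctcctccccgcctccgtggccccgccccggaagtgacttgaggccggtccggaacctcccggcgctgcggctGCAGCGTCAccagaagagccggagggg
Psme1, chr14:55578244-55578513, plus strand: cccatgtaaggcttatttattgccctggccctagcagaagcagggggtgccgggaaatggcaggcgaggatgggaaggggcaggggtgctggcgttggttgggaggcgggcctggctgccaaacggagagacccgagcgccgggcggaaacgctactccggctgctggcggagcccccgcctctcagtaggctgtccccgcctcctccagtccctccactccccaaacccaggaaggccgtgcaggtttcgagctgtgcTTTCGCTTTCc

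The capitals in Psme4 match TGACNNNGC, the core of the antioxidant response element, on the reverse strand. Those in Psme1 match the core of the interferon-stimulated response element, which is GAAA, 2 free bases and GAAA, on the reverse strand. Both motifs, with CCAAT and with the gamma-activated site TTCNNNGAA, were searched on both strands of windows from 250 bases before to 50 bases after each start. Such windows were found for 41 of the 49 members, 44 windows in all. TGACNNNGC was in 13.6% of these and in 12.4% of all 32851 windows, and CCAAT was in 31.8% and 37.4%. The interferon-stimulated element core was in 11.4% of member windows, which is 5 of 44, and in 3.44% of all windows. These 5 were of Psmb3, Psmd4, Psmd9, Psme1 and Psmg4, and the windows of the inducible subunits Psmb8 and Psmb9 held none. TTCNNNGAA was in 6.82% of member windows and 8.3% of all. Matches are descriptions of these letters and not evidence of binding.

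The antioxidant response element is bound by Nfe2l1, the factor known in mammals to raise proteasome gene transcription when proteasome activity is short. The 6 member windows that hold its core are compared here, with the match in capitals and up to 9 bases on either side, on the strand of the gene.
Psmb5: gtgaagttgTGACGTCGCggcgttgcc
Psmb6: taaagagagTGACGGAGCgctttacga
Psmd9: tctagccggTGACCCCGCccacttcca
Psmc6: cagccagtaGCTAAGTCAggcattgct
Psmd12: tctGCTGTGTCAcatttgccc
Psme4: gctgcggctGCAGCGTCAccagaagag

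The match begins 47, 9 and 31 bases before the start in Psmb5, Psmb6 and Psmd9 and reads as the reverse complement in Psmc6, Psmd12 and Psme4. In the order of the lines, the log2 fold changes (± SE) of these 6 genes were 0.06 ± 0.08, -0.02 ± 0.06, 0.08 ± 0.08, 0.00 ± 0.06, 0.07 ± 0.05 and -0.27 ± 0.07. None was past the threshold. The 95% intervals of all but Psme4 included 0, so whether the genes share a direction cannot be read from these values. The part of Nfe2l1 in them was not tested.

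The inducible counterparts of the cutting subunits were scarce in the brain of both genotypes, and their genotypes overlapped. Psmb8, which replaces Psmb5, had 0.986, 1.76 and 0.736 CPM in deficient mice and 1.497, 0.929 and 0.699 CPM in wild-type mice. Psmb9, which replaces Psmb6, had 1.13, 1.51 and 0.460 CPM in deficient mice and 1.46, 1.37 and 1.14 CPM in wild-type mice. In Psmb9 deficient mouse 3 was the lowest and deficient mouse 2 the highest of the 6, so the deficient mice spanned the wild-type ones. Psmb10, which replaces Psmb7, had 10.4, 9.23 and 7.91 CPM in deficient mice and 10.2, 8.46 and 7.61 CPM in wild-type mice.

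The log2 fold changes were 0.16 ± 0.38 for Psmb8, -0.34 ± 0.36 for Psmb9 and 0.07 ± 0.14 for Psmb10 (SE), with edgeR adjusted p of 0.835, 0.589 and 0.815. None of these had a direction that held without each mouse: the fits that left out 1 mouse gave -0.29 to 0.53 for Psmb8, -0.74 to 0.00 for Psmb9 and -0.03 to 0.20 for Psmb10. The depth limits what can be said of the first pair, since each library held 10 to 42 reads of Psmb8 or Psmb9. Their 95% intervals of the fold, 0.61 to 2.04 and 0.451 to 1.38, leave room for differences that the core and cap intervals do not. Per transcript length (RPKM, reads scaled to transcript length and library total), Psmb8 was at 0.723, 1.19 and 0.599% of Psmb5 in deficient mice, against 1.11, 0.773 and 0.514% in wild-type mice. Psmb9 was at 0.861, 1.15 and 0.395% of Psmb6 in deficient mice, against 1.10, 1.06 and 0.931% in wild-type mice. Psmb10 stood higher, at 7.75, 6.90 and 6.15% of Psmb7 in deficient mice, against 7.50, 6.62 and 5.91% in wild-type mice. Exons of Psmb9 overlap its neighbour Tap1 on the other strand by 212 bases, and those of Psmb8 overlap Gm20496 on the other strand by 498 bases, so their reads are uncertain to that extent. The thymus subunit Psmb11 had 8, 7 and 16 reads in deficient mice, against 5, 9 and 9 in wild-type mice, too few to be tested.

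Of 20 interferon-response and peptide-loading genes, all tested, 0 were called higher and 0 lower, which at 4.93% of all tested genes says little of so short a list. Irf7, an interferon regulatory factor, was nearest, at a log2 fold change of -0.73 ± 0.18 (SE, edgeR adjusted p 0.0553). Without deficient mouse 1, where 6.48% of all genes were called lower, 3 of the 20 were lower, namely Irf7 (edgeR adjusted p 0.0402), Stat2 (0.0131) and H2-D1 (0.0264). These were named after their values were seen. Tap1, the peptide transporter gene beside Psmb9, had 0.06 ± 0.17 (SE, edgeR adjusted p 0.851).

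Psma8 encodes the alpha subunit that takes the place of Psma7 in proteasomes of testis germ cells. Its reads were few, with 13, 19 and 16 in deficient mice, against 6, 10 and 4 in wild-type mice. These are 0.611, 0.797 and 0.736 CPM in deficient mice against 0.243, 0.489 and 0.175 CPM in wild-type mice. All deficient mice were above all wild-type mice, and wild-type mouse 2 was the nearest to them. The log2 fold change was 1.27 ± 0.38 (SE, edgeR adjusted p 0.0881), with a 95% interval of the fold of 1.33 to 4.36. It ran from 0.999 without wild-type mouse 3 to 1.75 without wild-type mouse 2, with adjusted p between 0.0651 and 0.241 over the 13 alternatives that gave one. The gene met the minimum of the expression filter, 0.445 CPM in 3 mice, in 3 deficient mice and 1 wild-type mouse, so it was tested through the genotype in which it was high. In the authors' deposited table, where fold changes are shrunken, Psma8 had 0.23 on the log2 scale, turned to deficient over wild type, and p = 0.0415 before adjustment. Psma7 had 89.8, 86.7 and 84.5 CPM in deficient mice and 90.9, 88.1 and 85.7 CPM in wild-type mice. Per transcript length Psma8 was at 0.367, 0.497 and 0.470% of Psma7 in deficient mice, against 0.144, 0.300 and 0.110% in wild-type mice, below 1% in every mouse beside the somatic gene.

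The 7 assembly chaperones had the highest median log2 fold change of the groups with more than 1 tested gene, 0.11, and 0 of 7 passed. Psmd5, Psmd9 and Psmd10 hold parts of the cap during assembly, and Psmg1 to Psmg4 build the alpha ring. Psmd5 had 51.1, 53.2 and 50.7 CPM in deficient mice and 47.7, 48.0 and 47.8 CPM in wild-type mice. The wild-type mice lay within 1 CPM of each other and below all deficient mice, and the log2 fold change was 0.11 ± 0.05 (SE, edgeR adjusted p 0.188). Psmd10, also known as gankyrin and the one member on the X chromosome, had 15.1, 15.9 and 15.7 CPM in deficient and 14.2, 14.7 and 14.2 CPM in wild-type mice, at 0.12 ± 0.07 (SE, edgeR adjusted p 0.331). Psmg1 did not overlap either, at 12.1 ± 0.27 CPM in deficient and 11.04 ± 0.659 CPM in wild-type mice (SD, n = 3 each), whereas Psmg2 and Psmg4 had log2 fold changes of -0.08 and -0.04. Thus 3 of the 7 were higher without overlap, beside 14.9% of all tested genes, a count that says little of so short a list. Psmg3 had the largest fold change of the group, 0.14 ± 0.19 (SE, edgeR adjusted p 0.694), from 3.19, 3.69 and 2.94 CPM in deficient and 3.28, 2.15 and 3.45 CPM in wild-type mice, which overlapped. It was -0.03 without wild-type mouse 2 and 0.04 without deficient mouse 2, so its direction and rank rested on 1 mouse. Exons of Psmg3 overlap those of Gm26938 on the same strand by 280 bases. Those of Psmd9 overlap Gm26745 on the other strand by 1849 bases, so the reads of both members are uncertain to that extent.

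Of 27 tested genes that act with the proteasome 0 were called, a count that at the 4.93% of all tested genes says little of these lists. Of 3 further assembly factors and subunits 0 passed, with Pomp, which completes the core, at 82.7 CPM in deficient and 83.8 CPM in wild-type mice. Adrm1, a ubiquitin receptor of the cap, had a log2 fold change of -0.26 ± 0.09 (SE, edgeR adjusted p 0.136). Among the fits that left out 1 mouse, Adrm1 passed in 1, that without deficient mouse 1 (edgeR adjusted p 0.0341). There 6.48% of all genes were called lower. Of 13 proteasome-bound proteins 0 passed, among them the deubiquitinase Usp14 at 0.05 ± 0.05 (SE). Of 5 genes that control proteasome gene transcription 0 passed. Nfe2l1 had 447, 455 and 424 CPM in deficient and 439, 436 and 434 CPM in wild-type mice, so the deficient mice spanned the wild-type ones, and Nfe2l2 had 0.10 ± 0.08 (SE). Of 6 genes for ubiquitin and its activating enzymes 0 passed.

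Levels per transcript length differed far more between subunits than between genotypes. Over the 31 core and cap subunits the median was 61.7 RPKM in deficient and 58.8 RPKM in wild-type mice. The ATPase Psmc5 was highest, at 129 RPKM in deficient and 130.5 RPKM in wild-type mice, and Psma3 was lowest, at 3.99 RPKM in deficient and 4.17 RPKM in wild-type mice. The order of the subunits was nearly the same in both genotypes (Spearman's rho 0.993 across 31 genes, which share libraries and annotated lengths).

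The lowest core subunits had near-identical copies elsewhere in the genome. Of the 31 subunits 8 have an annotated copy of at least 300 aligned bases at 95% identity or more, most of them pseudogenes, and their median was 32.0 RPKM in deficient and 31.6 RPKM in wild-type mice. The 23 subunits without one had a median of 63.7 RPKM in deficient and 60.0 RPKM in wild-type mice. Psma3 matches the pseudogene Gm13835 over 665 bases at 100% identity, Psma5 matches Gm8394 over 952 bases at 98.6%, and Psmb3 matches Gm5356 over 615 bases at 96.3%. Psma5 was at 14.2 RPKM in deficient and 13.8 RPKM in wild-type mice, and Psmb3 at 25.5 RPKM in both. Psmb5 has a copy as well, Gm3375 at 98.9% over 796 bases, and was at 83.3 RPKM in deficient and 80.1 RPKM in wild-type mice. Reads that fit 2 places may have been dropped or split in counting, which is not described in the sources used here, so the levels of these 8 genes are uncertain. The annotated transcripts of Psma2 and Psma3 are long for the family, at 2911 and 2846 nt, which lowers their RPKM. Per kilobase of coding sequence Psma2 was at 113 CPM in wild-type mice, but Psma3, Psma5 and Psmb3 were still the lowest of the core, at 15.5, 23.7 and 31.7 CPM.

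**Figure D4:**
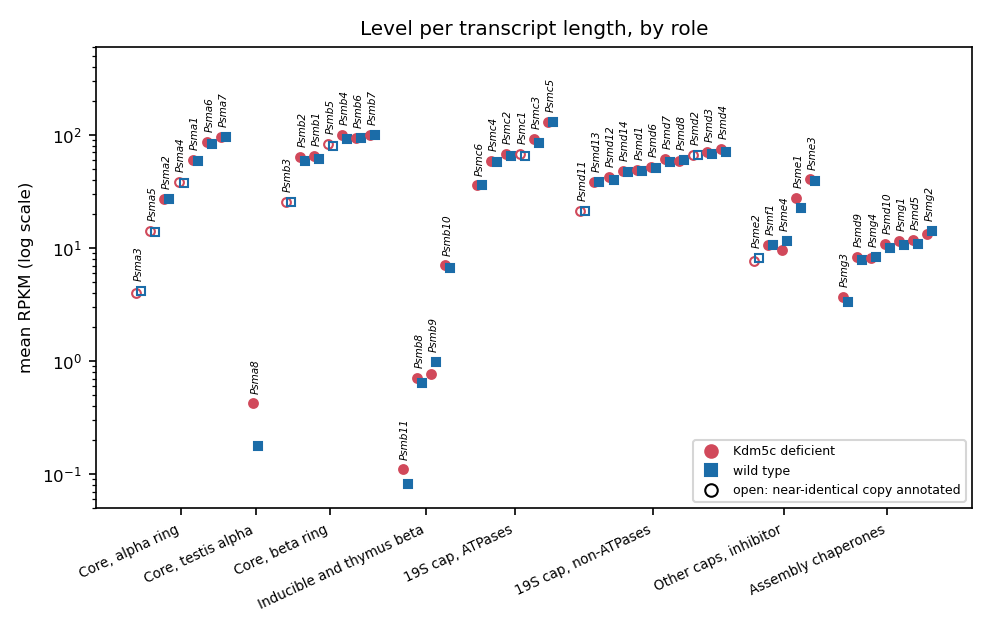
Mean RPKM per genotype (n = 3 mice each) of the 48 proteasome genes with reads, on a log scale, grouped by role and ordered by wild-type level; red circles are deficient and blue squares wild type, and open symbols mark genes with a near-identical copy. Psmc5 is the highest gene, the inducible subunits Psmb8 and Psmb9 are below 1 RPKM, and Psma3 and Psma5 are the lowest of the alpha ring.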

How the data were processed

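Per the file headers, the authors deposited unnormalized counts per gene symbol and mouse. Their table adds a mean signal over mice, and the authors' log2 fold change and its error, Wald score and p-value before adjustment, also deposited. Against the counts, the sign of that fold change is that of wild type over deficient. Per the submitters' processing notes DESeq2 and GRCm38 were used; for the aligner, the counting program and the strandedness, nothing is given in the sources used here. RNA came from silica columns and TruSeq RNA libraries, per the labels' protocols.

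Counts were fitted in R 4.3.3 with edgeR 4.0.16 (default expression filter, minimum count 10 and minimum total 15; trimmed-mean scaling; quasi-likelihood test with genotype alone) over 15127 genes with Benjamini-Hochberg adjustment at 0.05. Standard errors and 95% intervals came from the F statistic. limma 3.58.1 and DESeq2 1.42.0 gave alternatives. Lengths, overlaps and copies (blastn 2.17.0) came from GENCODE M21 on GRCm38, with the longest principal transcript as length; promoters came from RefSeq (GRCm38.p6). Protein sequences were not used here.

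The members and the gene lists were chosen with earlier results of these data known. Values per mouse are given for members with the smallest p or largest fold change of their role, for the cutting subunits and their counterparts, and for Psme1, Psme2, Psma7, Psma8 and Psmd10; other genes were named after their values were seen. Samples of one genotype are taken as separate mice; the labels do not describe pooling or dissection, and the p-values measure the spread between these samples, which may be partly technical. No pair of libraries of one genotype agreed within sampling noise (chi-square per gene 3.55 to 17.6). Counts without molecular identifiers are not independent molecules, so the floors cover counting error only.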

Additional observations from a re-analysis of the deposited data

How the results depend on the processing

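The count of higher members was 0 in every analysis at a threshold of 0.05, including those that left out 1 mouse each (0 to 0), and became 2 (Psme1 and Psma8) at an adjusted p under 0.1, where 5.67% of all tested genes were higher and 6.18% lower. The count of lower members was 0 by the design used. It was 1 (Psme4) with no filter on low counts, 1 with DESeq2 and 1 at an adjusted p under 0.1. When each mouse was left out it was 0 to 1, and the cause was not tested. Of 15249 to 15389 genes, the fits without deficient mouse 1, 2 or 3 called 1101, 365 and 90 higher and 997, 328 and 65 lower. Those without wild-type mouse 1, 2 or 3 called 38, 47 and 57 higher and 6, 6 and 42 lower. Where so few genes were called, a count of 0 members says little. The median log2 fold change of the members ran from -0.00013 to 0.06 over the fits without 1 mouse, and was 0.02 without scaling and 0.01 with GC and length offsets, where 95.7% of tested genes had values. Median-ratio and upper quartile scaling moved no call. Replicate numbers are shared by the genotypes. The deviations of same-numbered mice had correlations of -0.06, -0.06 and 0.14, which show no clear pairing but cannot exclude one. With the replicate number as a block 0 members passed. That fit called only 49 of 15127 genes higher and 9 lower, so the 0 says little. In it the median of the members was 0.04 and Psme4 had a log2 fold change of -0.27 (adjusted p = 0.118 by edgeR). Depth limits Psma8, Psmb8, Psmb9 and Psmb11, with under 50 reads per library.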
